A study of Homo sapiens with 12 samples.

Results

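The 40 genes described here make and assemble ribosomes in the nucleolus, and their mRNA was measured by RNA-seq in LNCaP cells, a human line from a prostate cancer that responds to androgen. They were chosen by name for their known roles, and all 40 were found among the 34643 gene symbols of the table and are among the 15419 that passed a filter on low counts. They comprise 9 genes of RNA polymerase I and its initiation factors, 3 of the box C/D and 4 of the box H/ACA small nucleolar ribonucleoproteins (snoRNPs), 3 abundant nucleolar proteins, 11 factors of the small ribosomal subunit and 10 of the large one. The cells carried a lentiviral pLKO.1-puro vector that expressed, from the U6 promoter, an shRNA against TMEFF2 (sh_TMEFF2) or a scrambled shRNA (sh_scramble), and both lines were selected with puromycin. After 24 h in medium with charcoal-stripped serum, which depletes androgen, both lines received 10 nM dihydrotestosterone (DHT), an androgen, or ethanol vehicle for 24 h, so that each line gave a −DHT and a +DHT group, 4 groups in all with 3 libraries each. The labels give 17 days of the shRNA and also about 2.5 weeks from transduction to treatment, while the methods give 14 days before androgen depletion. The 3 libraries of a group were separate treatments and extractions that came from 2 transductions, and which library came from which transduction, or which TMEFF2 shRNA the sequenced cells carried, is not stated in the sources used here. The cells are not described as clones.

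Ribosome production starts when RNA polymerase I transcribes the ribosomal DNA into a long precursor in the nucleolus. Box C/D snoRNPs methylate and box H/ACA snoRNPs pseudouridylate this precursor, while processing factors, helicases and nucleases cut it and load ribosomal proteins to build the small and the large subunit. The pathway uses much of the energy of a growing cell. Its protein genes are transcribed by RNA polymerase II, so that the values below are their mRNA levels. Ribosomal RNA itself was removed from the reads and was not measured.

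Library totals ran from 19450866 to 22612046 counts, of which the 40 genes together made up between 0.64% and 0.80%. Levels are given as CPM, counts scaled to a common library size with edgeR's trimmed mean of M-values, and each of the 40 genes had counts in every library, the lowest value being 8.80 CPM. TMEFF2, the target of the shRNA, held 77.8, 73.8 and 103 CPM in sh_scramble −DHT and 68.7, 39.4 and 81.7 CPM in sh_TMEFF2 −DHT, then 173, 117 and 169 CPM in sh_scramble +DHT and 142, 90.1 and 114 CPM in sh_TMEFF2 +DHT. The lines overlapped in TMEFF2 at both DHT levels, and the log2 differences of −0.43 and −0.41 were not past the threshold (quasi-likelihood test of edgeR, Benjamini-Hochberg adjusted over all genes, adjusted p = 0.503 and 0.304). The 10 luminal prostate markers summed to 6928 to 7222 CPM in sh_scramble −DHT, 14560 to 16200 CPM in sh_scramble +DHT, 4418 to 5005 CPM in sh_TMEFF2 −DHT and 5466 to 6942 CPM in sh_TMEFF2 +DHT, so that these markers were present in every library and differed in level between the groups. Of these markers 7 rose and 3 fell with DHT in sh_scramble, and 4 rose and 2 fell in sh_TMEFF2. The 12 markers of other cell types summed to between 31.4 and 62.5 CPM in every library, and 6 of them passed the filter. Of those 6, COL1A1, COL3A1, PTPRC and VWF fell and KRT14 rose with DHT in sh_scramble, and COL1A1 fell in sh_TMEFF2. CD3E, TP63 and CHGA, also among the 12, were at or near 0 in every library. DHT moved all genes tested by a median log2 fold change of −0.013 in sh_scramble and −0.021 in sh_TMEFF2.

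The first question was how the ribosome biogenesis genes respond to DHT in each line. With DHT, 14 of the 40 genes rose and 1 fell in sh_scramble, and 17 rose and 0 fell in sh_TMEFF2 (adjusted p of at most 0.05, edgeR's quasi-likelihood test over 15419 genes). In sh_TMEFF2, 0 of the 40 fell at an unadjusted p under 0.05 and 0 fell with DESeq2. Among all genes tested, 14.4% rose and 12.6% fell in sh_scramble, and 7.84% rose and 5.21% fell in sh_TMEFF2. The changes of the 40 genes were small, with median log2 fold changes of 0.20 (1.15-fold) in sh_scramble and 0.24 (1.18-fold) in sh_TMEFF2, and 35 and 36 of the values lay above 0. A change of at least 1.5-fold was reached by 0 of the 40 in sh_scramble, where 5.45% of all genes rose that far, and by 1 in sh_TMEFF2, CD3EAP, where 3.28% of all genes did. The 3 +DHT libraries all lay above the 3 −DHT libraries for 23 genes in sh_scramble and 22 in sh_TMEFF2, against 21.3% and 15.6% of all genes. Since the 40 genes are all well expressed, the shares were also taken at their level. Among the 9135 genes with a mean level of at least 15.2 CPM, that of the lowest of the 40, 20% rose in sh_scramble and 11.2% in sh_TMEFF2.

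**Figure D1:**
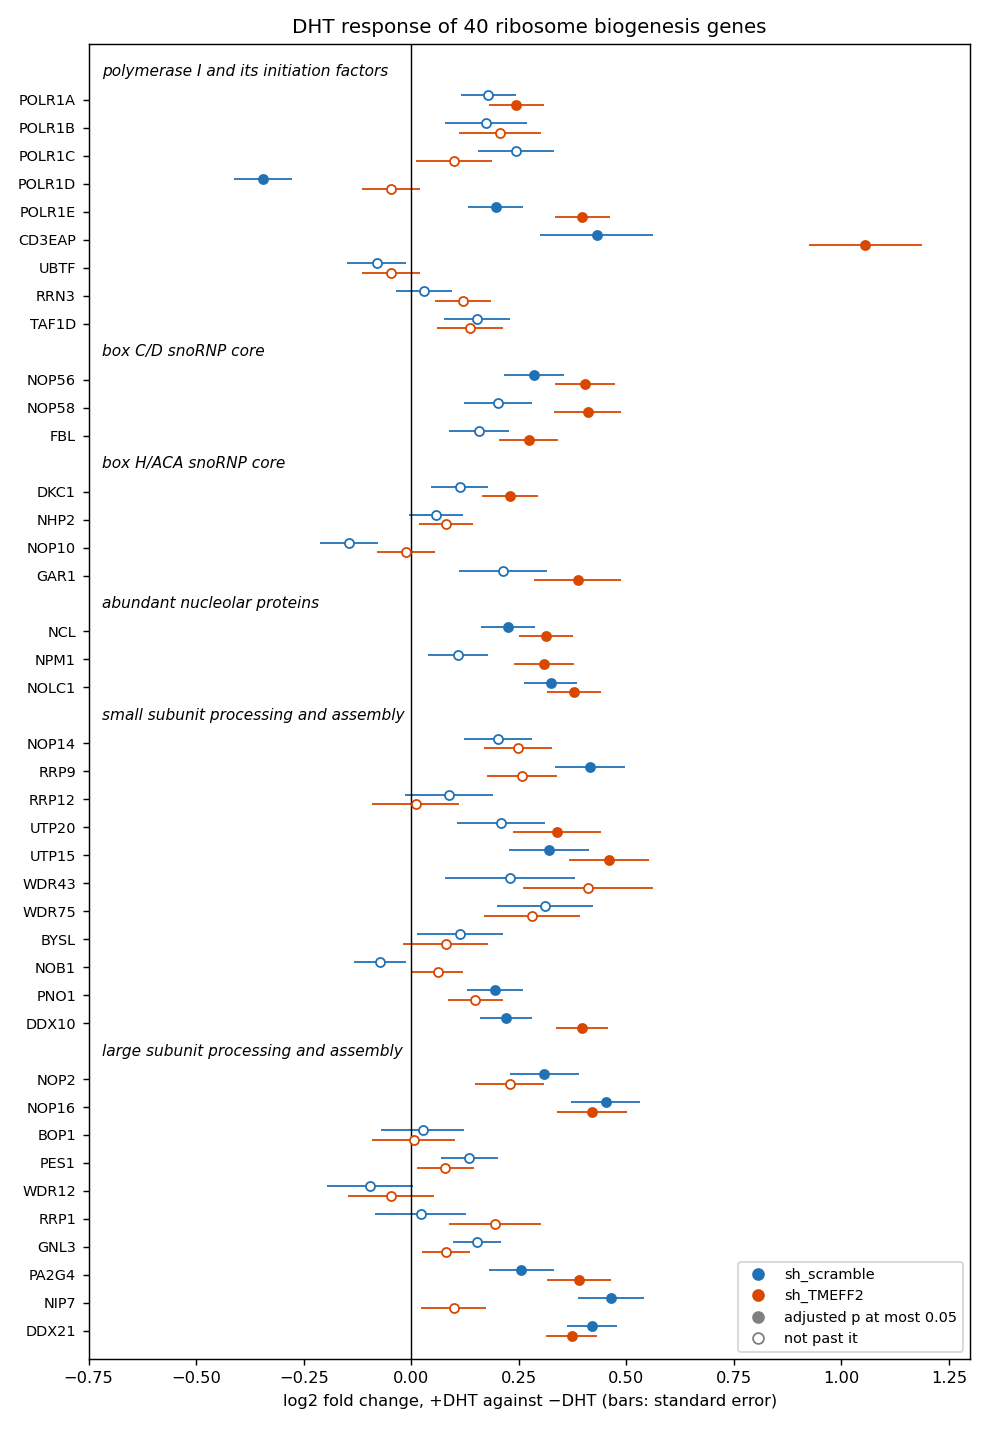
Log2 fold change with DHT (horizontal axis) of each of the 40 genes, grouped by role, in sh_scramble (blue) and sh_TMEFF2 (orange). Bars are standard errors, and filled points have an adjusted p of at most 0.05, which 14 genes above 0 and POLR1D below 0 reached in sh_scramble and 17 genes above 0 in sh_TMEFF2.

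Summed over the 40 genes, the libraries held between 6587 and 6926 CPM in sh_scramble −DHT and between 7389 and 7995 CPM in sh_scramble +DHT. In sh_TMEFF2 the sums lay between 6331 and 6741 CPM without and between 7668 and 7918 CPM with DHT, so that the groups did not overlap in either line. The summed level of 10 proliferation markers was also higher with DHT, at 989 and 1237 CPM without and 1292 and 1657 CPM with DHT in sh_scramble, and at 962 and 1314 CPM without and 1836 and 2302 CPM with DHT in sh_TMEFF2 (lowest and highest library). Of these markers, 6 rose in sh_scramble and 10 in sh_TMEFF2, and the part of these and of the luminal markers in the change of the biogenesis genes was not tested. In such bulk samples a change in the share of cells that express a gene and a change in the mRNA per cell cannot be told apart. Of the calls in sh_scramble, 6 of 15 held in all 22 refits at the same threshold, and 0 with the added limit of 1.5-fold. The 6 were POLR1D, NOLC1, RRP9, NOP16, NIP7 and DDX21. The number that rose in sh_scramble was 6 without sh_scramble −DHT replicate 1, where 10.8% of all genes rose. It was 9 without sh_scramble +DHT replicate 2, where 11.4% of all genes rose. When counts were scaled by library size only, 7 rose and 2 fell, where 10.9% of all genes rose and 17.5% fell. In sh_TMEFF2, 10 of 17 calls held in all 22 refits and 1 passed with the limit of 1.5-fold. The number that rose was 11 without sh_TMEFF2 −DHT replicate 2, where 4.51% of all genes rose. Losses named for single genes below are mostly those without 1 library, and other alternatives lost some calls too.

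The promoters of the genes were read to show what stands at their start sites. RefSeq promoters on GRCh38.p14, from 250 bases before to 50 bases after each listed start, were matched for 35 of the 40 genes, and POLR1E, NOP58, NOLC1, RRP12 and BOP1 had no entry. The E-box CACGTG, which reads the same on both strands and is the letters that MYC and related factors bind, was found in 14 of the 35 promoters, against 10.9% of the promoters of 15843 protein-coding genes and 8.77% of 27305 genes of any kind. It stood in 8 of the 19 promoters of genes that rose or fell with DHT in either line and in 6 of the 16 others. The motif TCTCGCGA was found in 4 of the 35 (11.4%, against 2.04% of coding genes), the ETS motif CCGGAAGT in 6 (17.1%, against 6.97%) and the NRF1 motif GCGCATGC in 3 (8.6%, against 4.89%), on either strand. AGAACA, the letters of 1 arm of an androgen receptor site, was found in 6 (17.1%, against 14.9% of coding genes and 17.54% of genes of any kind). Such matches are letters in a window and were not measured as bound sites. The 80 bases before and 10 after the start are printed for 5 genes with an E-box, for NPM1 with TCTCGCGA (read on the other strand) and for DDX10 with 2 overlapping copies of GCGCATGC, with the motif in capitals and each sequence 5′ to 3′ on the strand of its gene. NOP10, which did not pass the test, is shown beside genes that did.
CD3EAP, chr19:45406564-45406653, plus strand: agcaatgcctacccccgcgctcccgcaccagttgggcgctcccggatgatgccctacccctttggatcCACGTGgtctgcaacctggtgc
DDX21, chr10:68956567-68956656, plus strand: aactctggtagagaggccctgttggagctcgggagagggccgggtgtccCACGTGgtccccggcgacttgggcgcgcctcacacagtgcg
UTP20, chr12:101280025-101280114, plus strand: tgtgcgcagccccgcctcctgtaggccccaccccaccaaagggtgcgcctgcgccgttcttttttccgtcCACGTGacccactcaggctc
RRP9, chr3:51941895-51941984, minus strand: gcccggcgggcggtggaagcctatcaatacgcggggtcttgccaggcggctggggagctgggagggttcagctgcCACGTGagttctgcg
NOP10, chr15:34343127-34343216, minus strand: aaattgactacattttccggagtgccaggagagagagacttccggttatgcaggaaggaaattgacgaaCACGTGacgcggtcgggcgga
NPM1, chr5:171387769-171387858, plus strand: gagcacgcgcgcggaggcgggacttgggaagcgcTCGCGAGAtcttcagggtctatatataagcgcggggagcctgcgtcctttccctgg
DDX10, chr11:108664989-108665078, plus strand: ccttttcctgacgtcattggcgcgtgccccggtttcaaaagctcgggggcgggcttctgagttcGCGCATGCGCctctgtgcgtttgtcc
The E-box begins 12 bases before the listed start in CD3EAP, 31 in DDX21, 10 in UTP20, 5 in RRP9 and 11 in NOP10. A gene with several listed starts was counted for a motif if any of them held it. The stretches printed for DDX21 and NPM1 lie inside the genes as placed by GENCODE, which begin at chr10:68956135 and chr5:171387116. In DDX21 the window nearer that first base, chr10:68955920-68956219, held the ETS motif and no E-box. The motif of NPM1 begins 46 bases before its start, and the copies in DDX10 begin 16 and 14 bases before theirs.

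Among the 9 genes of RNA polymerase I and its initiation factors, POLR1E and CD3EAP rose in both lines, POLR1A rose in sh_TMEFF2 and POLR1D fell in sh_scramble. CD3EAP (current symbol POLR1G, chr19:45406644-45410737, plus strand) encodes a subunit that binds POLR1E and is found only in polymerase I. It held 11.3, 11.9 and 12.8 CPM in sh_scramble −DHT and 14.4, 16.3 and 17.8 CPM in sh_scramble +DHT, and 8.80, 10.4 and 12.4 CPM in sh_TMEFF2 −DHT and 20.1, 23.3 and 22.4 CPM in sh_TMEFF2 +DHT. All +DHT libraries lay above all −DHT libraries, and the sh_TMEFF2 +DHT libraries were the highest of the 4 groups. The fold change was 1.35 in sh_scramble (log2 0.43, standard error 0.13, edgeR's adjusted p = 0.0282) and 2.08 in sh_TMEFF2 (log2 1.06, standard error 0.13, edgeR's adjusted p = 0.000671). CD3EAP overlaps ERCC1 on the opposite strand, and the deposited values do not carry strand. ERCC1 had log2 values of −0.23 in sh_scramble (edgeR's adjusted p = 0.0591) and −0.27 in sh_TMEFF2 (edgeR's adjusted p = 0.0494). The call of CD3EAP in sh_scramble was lost without either of sh_scramble −DHT replicates 1 and 2 or of sh_scramble +DHT replicates 2 and 3, and under library size only, with an adjusted p of up to 0.109 over all alternatives.

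POLR1E, the partner of CD3EAP, went from 41.9, 39.1 and 41.5 CPM to 48.1, 45.1 and 47.2 CPM with DHT in sh_scramble, and from 42.4, 39.6 and 43.4 CPM to 53.1, 54.5 and 57.4 CPM in sh_TMEFF2. Its groups did not overlap in either line, and the log2 fold changes were 0.20 (edgeR's adjusted p = 0.0381) and 0.40 (edgeR's adjusted p = 0.00217). The first of these calls was lost under 14 of 22 alternatives, among them those without any 1 of the 3 sh_scramble −DHT libraries, sh_scramble +DHT replicate 1 or 3, sh_TMEFF2 −DHT replicate 1 or sh_TMEFF2 +DHT replicate 2, and the call in sh_TMEFF2 was lost under 0. POLR1A, the largest catalytic subunit, rose in sh_TMEFF2 by 0.24 (edgeR's adjusted p = 0.0255), a call lost without sh_TMEFF2 −DHT replicate 1 or 2, or sh_TMEFF2 +DHT replicate 1 or 3, and had a value of 0.18 in sh_scramble (edgeR's adjusted p = 0.0562). POLR1D, a small subunit that polymerases I and III share (chr13:27620742-27744237, plus strand), was the 1 gene that fell. It held 127, 123 and 109 CPM in sh_scramble −DHT and 95.1, 95.2 and 93.0 CPM in sh_scramble +DHT, a narrow low group below all others. In sh_TMEFF2 it held 116, 122 and 109 CPM without and 114, 114 and 109 CPM with DHT, and these groups overlapped. The fold change in sh_scramble was 0.79 (log2 −0.34, standard error 0.068, edgeR's adjusted p = 0.00242), against log2 −0.047 in sh_TMEFF2 (edgeR's adjusted p = 0.72). POLR1B, the other catalytic subunit, and POLR1C, the second subunit shared with polymerase III, did not pass the test in either line, with log2 values of 0.17 and 0.24 in sh_scramble and 0.21 and 0.10 in sh_TMEFF2. The initiation factors UBTF, which binds ribosomal DNA, RRN3, which makes the polymerase competent to initiate, and TAF1D, a subunit of the promoter selectivity factor, did not pass it either. Their log2 values ran from −0.08 for UBTF to 0.15 for TAF1D in sh_scramble, and from −0.047 to 0.14 in sh_TMEFF2.

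**Figure D2:**
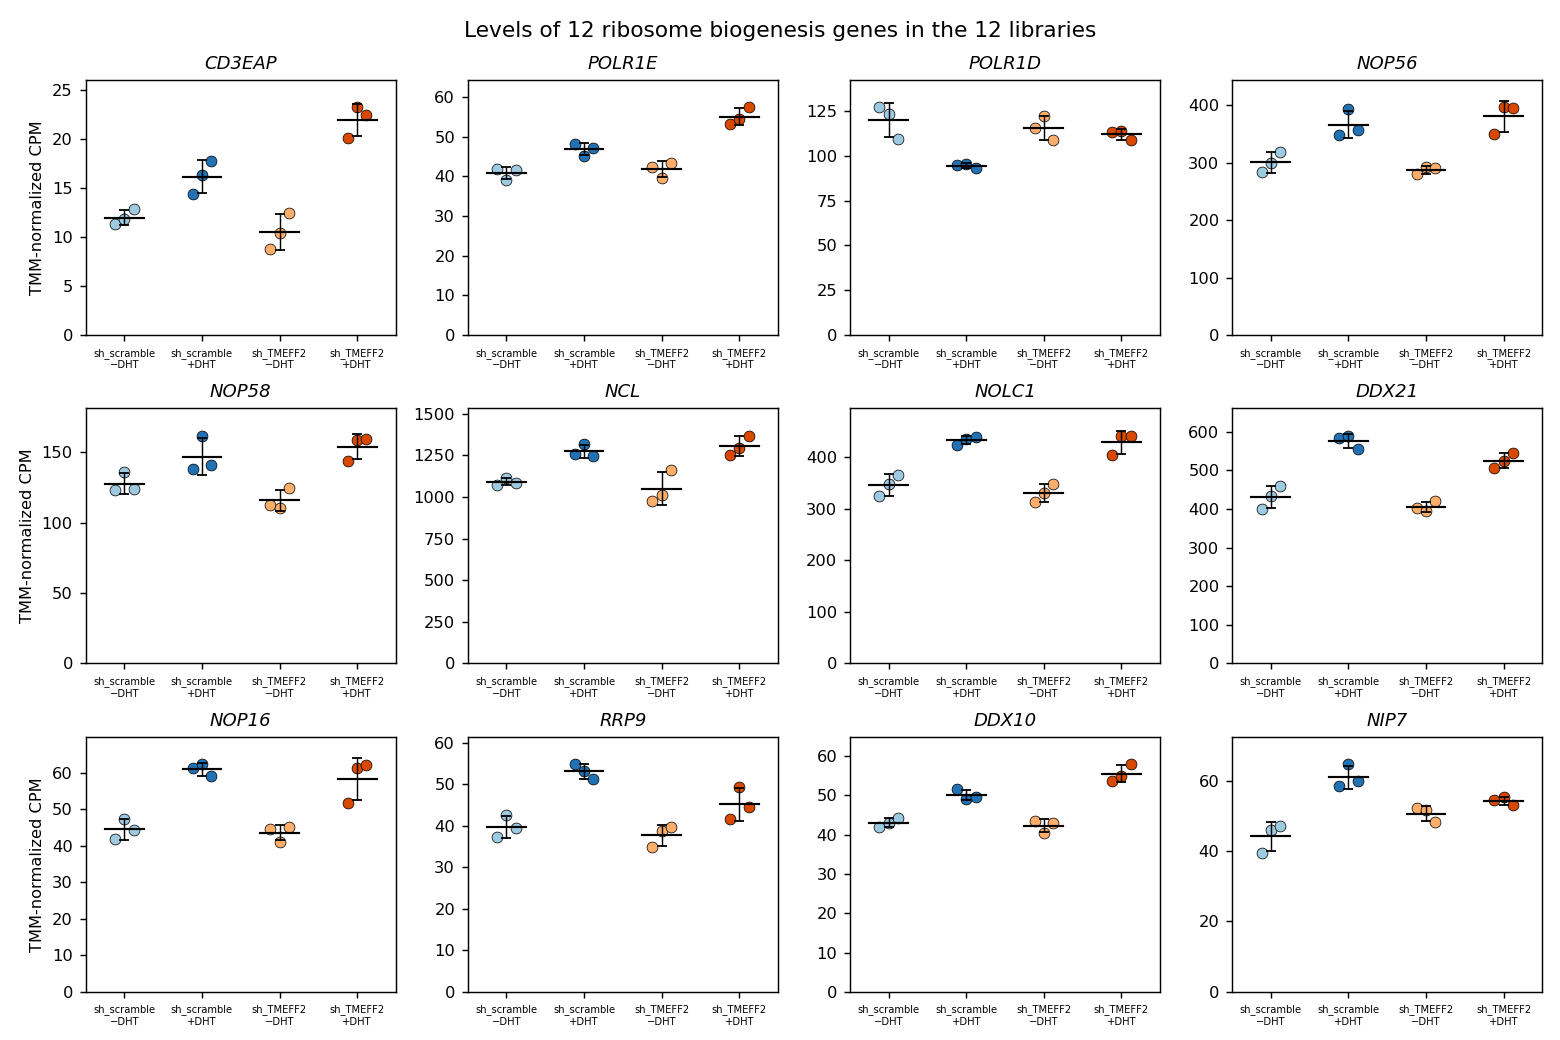
Level (vertical axis, TMM-normalized CPM from 0) of 12 of the genes in each of the 12 libraries, by group, with the mean (line) and SD (error bar, n = 3). CD3EAP reached 20.1 to 23.3 CPM in sh_TMEFF2 +DHT, POLR1D was lowest in sh_scramble +DHT at 93.0 to 95.2 CPM, and NIP7 was highest in sh_scramble +DHT at 58.4 to 64.7 CPM.

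The box C/D snoRNP core has 3 proteins, the scaffold pair NOP56 and NOP58 and the ribose methyltransferase fibrillarin (FBL). In sh_TMEFF2 3 of the 3 genes rose, and in sh_scramble 1 did, NOP56. NOP56 held 284, 299 and 319 CPM in sh_scramble −DHT and 349, 393 and 357 CPM in sh_scramble +DHT, then 279.6, 293 and 290.4 CPM in sh_TMEFF2 −DHT and 349.8, 397 and 395 CPM in sh_TMEFF2 +DHT. Its log2 fold changes were 0.29 (edgeR's adjusted p = 0.00836) and 0.40 (edgeR's adjusted p = 0.00314). NOP58 went from 113, 111 and 124 CPM to 144, 159 and 159.5 CPM in sh_TMEFF2 (log2 0.41, edgeR's adjusted p = 0.00558) and from 123, 136 and 124 CPM to 138, 162 and 141 CPM in sh_scramble (log2 0.20, edgeR's adjusted p = 0.0767). The +DHT libraries of NOP58 lay above the −DHT libraries in both lines, by a small gap in sh_scramble. FBL rose by 0.27 in sh_TMEFF2 (edgeR's adjusted p = 0.0219), a call lost without sh_TMEFF2 −DHT replicate 2, sh_TMEFF2 +DHT replicate 2 or sh_TMEFF2 +DHT replicate 3, and had a value of 0.16 in sh_scramble (edgeR's adjusted p = 0.113).

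Of the 4 proteins of the box H/ACA snoRNP, 2 rose in sh_TMEFF2 and 0 in sh_scramble (edgeR; 0 at an unadjusted p under 0.05). These were DKC1, the pseudouridine synthase dyskerin (log2 0.23, edgeR's adjusted p = 0.0377), and GAR1 (log2 0.39, edgeR's adjusted p = 0.0264). GAR1 held 25.7, 23.4 and 26.2 CPM in sh_TMEFF2 −DHT and 32.0, 31.8 and 34.5 CPM in sh_TMEFF2 +DHT, against 26.4, 29.3 and 27.9 CPM and 28.9, 37.8 and 30.0 CPM in sh_scramble, where 1 library with DHT stood above the rest and the groups overlapped. Both calls were lost without sh_TMEFF2 −DHT replicate 1, sh_TMEFF2 −DHT replicate 2 or sh_TMEFF2 +DHT replicate 3. The core proteins NHP2 and NOP10 bind the guide RNA and the synthase. NOP10 had values of −0.15 in sh_scramble and −0.013 in sh_TMEFF2 and NHP2 of 0.057 and 0.08, all short of the threshold.

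The abundant nucleolar proteins are nucleolin (NCL), which binds precursor rRNA, nucleophosmin (NPM1), a chaperone of ribosome assembly, and NOLC1, a phosphoprotein that binds snoRNPs. In sh_TMEFF2 3 of the 3 rose and in sh_scramble 2, NCL and NOLC1. NOLC1 went from 324, 347 and 366 CPM to 423, 436 and 439 CPM in sh_scramble and from 312, 329.6 and 348 CPM to 403, 442 and 442 CPM in sh_TMEFF2. Both changes were of a like size, with log2 values of 0.32 and 0.38 (edgeR's adjusted p = 0.00202 and 0.00258), and they held in all 22 refits at the same threshold. In sh_scramble NCL rose from 1090 ± 22.3 CPM (SD, n = 3) to 1275 ± 39.7 CPM (SD, n = 3), and in sh_TMEFF2 from 1049 ± 98.2 CPM (SD, n = 3) to 1304 ± 58.6 CPM (SD, n = 3), log2 values of 0.23 and 0.31 (edgeR's adjusted p = 0.0186 and 0.00698). Its call in sh_scramble was lost without sh_scramble −DHT replicate 1 or sh_scramble +DHT replicate 2. NPM1 held 1310, 1299 and 1367 CPM in sh_TMEFF2 −DHT and 1741, 1602 and 1583 CPM in sh_TMEFF2 +DHT, groups without overlap (log2 0.31, edgeR's adjusted p = 0.0126). In sh_scramble its groups overlapped, with 1416, 1521 and 1375 CPM and 1603, 1668 and 1376 CPM (log2 0.11, edgeR's adjusted p = 0.284). The annotation holds 49 pseudogenes of NPM1, so that part of its reads may be placed on copies, and the call in sh_TMEFF2 was lost without sh_TMEFF2 −DHT replicate 2 (adjusted p = 0.052).

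Of the 11 factors of the small subunit, RRP9, UTP15, PNO1 and DDX10 rose in sh_scramble, and UTP20, UTP15 and DDX10 rose in sh_TMEFF2. UTP15 belongs to the complex that binds the nascent precursor first, together with WDR43 and WDR75, and went from 32.9, 37.8 and 37.4 CPM to 42.6, 51.4 and 40.9 CPM in sh_scramble and from 32.1, 35.8 and 32.8 CPM to 43.8, 47.5 and 47.1 CPM in sh_TMEFF2. The groups did not overlap, and the log2 values were 0.32 and 0.46 (edgeR's adjusted p = 0.0228 and 0.00738). The call of UTP15 in sh_scramble was lost under 6 of 22 alternatives, among them those without sh_scramble −DHT replicate 1 or sh_scramble +DHT replicate 2. Its call in sh_TMEFF2 was lost with either column of each library alone (edgeR's adjusted p up to 0.081). WDR43 and WDR75 had log2 values of 0.23 and 0.31 in sh_scramble and 0.41 and 0.28 in sh_TMEFF2, none past the threshold (edgeR's adjusted p from 0.0563 to 0.294). RRP9, a protein of the snoRNP that guides the early cleavages, went from 37.2, 42.5 and 39.5 CPM to 54.9, 53.2 and 51.2 CPM in sh_scramble and from 34.9, 38.7 and 39.6 CPM to 41.6, 49.3 and 44.4 CPM in sh_TMEFF2. The sh_scramble +DHT libraries stood above the other 3 groups (log2 0.42, standard error 0.081, edgeR's adjusted p = 0.00224), and the value in sh_TMEFF2 was just short of the threshold (log2 0.26, edgeR's adjusted p = 0.0557). DDX10, an RNA helicase that acts in early cleavage, went from 41.9, 43.0 and 44.2 CPM to 51.5, 49.1 and 49.7 CPM in sh_scramble and from 43.4, 40.3 and 43.0 CPM to 53.7, 55.0 and 58.0 CPM in sh_TMEFF2. Its libraries were tight within each group, and the log2 values were 0.22 and 0.40 (edgeR's adjusted p = 0.0172 and 0.00172). The call in sh_scramble was lost without replicate 1 of sh_scramble −DHT or of sh_scramble +DHT.

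UTP20, a large scaffold protein of the processome, rose in sh_TMEFF2 by 0.34 (edgeR's adjusted p = 0.0463), a call lost under 14 of 22 alternatives, including those without any 1 of the sh_TMEFF2 −DHT libraries or sh_TMEFF2 +DHT replicate 2 or 3, and PNO1 in sh_scramble by 0.19 (edgeR's adjusted p = 0.0422), a call lost under 17, including the 12 that left out any 1 library. PNO1 and NOB1 act together in the last steps in the cytoplasm, where NOB1 is the nuclease that trims the small subunit rRNA. NOB1 had values of −0.072 in sh_scramble and 0.061 in sh_TMEFF2, neither past the threshold. The other members, NOP14, a core processome protein, RRP12, an export factor, and BYSL, an assembly factor, did not pass it in either line. RRP12 was the smallest response of the group in sh_TMEFF2, at 0.0099 (edgeR's adjusted p = 0.968).

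Of the 10 factors of the large subunit, NOP2, NOP16, PA2G4, NIP7 and DDX21 rose in sh_scramble and NOP16, PA2G4 and DDX21 in sh_TMEFF2. DDX21 (chr10:68956135-68985068, plus strand), an RNA helicase of the nucleolus with roles in rRNA synthesis and processing, held 401, 434 and 459 CPM in sh_scramble −DHT and 583, 590.4 and 557 CPM in sh_scramble +DHT, then 403, 395 and 419.9 CPM in sh_TMEFF2 −DHT and 507, 524 and 546 CPM in sh_TMEFF2 +DHT. All 6 +DHT libraries lay above all 6 −DHT libraries. The log2 fold changes were 0.42 (standard error 0.058, edgeR's adjusted p = 0.000183), the smallest adjusted p of the 40 genes in sh_scramble, and 0.37 (standard error 0.058, edgeR's adjusted p = 0.00203). NOP16 went from 41.8, 47.5 and 44.5 CPM to 61.4, 62.4 and 59.1 CPM in sh_scramble and from 44.7, 41.2 and 45.1 CPM to 51.7, 61.3 and 62.2 CPM in sh_TMEFF2, log2 values of 0.45 and 0.42 (edgeR's adjusted p = 0.00125 and 0.0056). PA2G4, which binds precursors of the large subunit and mature ribosomes, rose by 0.26 and 0.39 (edgeR's adjusted p = 0.0235 and 0.00558), the first of which was lost without sh_scramble −DHT replicate 1 or sh_scramble +DHT replicate 1 or 2. NIP7 (chr16:69337996-69343106, plus strand), an assembly factor of precursor particles, rose in sh_scramble and did not pass the test in sh_TMEFF2. It held 39.5, 46.1 and 47.0 CPM in sh_scramble −DHT and 58.4, 64.7 and 59.7 CPM in sh_scramble +DHT (log2 0.46, standard error 0.076, edgeR's adjusted p = 0.00065). In sh_TMEFF2 it held 52.3, 51.5 and 48.1 CPM without and 54.4, 55.2 and 53.0 CPM with DHT (log2 0.10, edgeR's adjusted p = 0.451), libraries that lay between those of the sh_scramble groups.

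NOP2, an rRNA methyltransferase, rose in sh_scramble by 0.31 (edgeR's adjusted p = 0.0129), a call lost without sh_scramble −DHT replicate 1 or sh_scramble +DHT replicate 2, and had a value of 0.23 in sh_TMEFF2 (edgeR's adjusted p = 0.083). PES1, BOP1 and WDR12 form 1 complex that is needed for the rRNA of the large subunit, and none of them passed the test. Their log2 values were 0.13, 0.026 and −0.10 in sh_scramble and 0.079, 0.0061 and −0.048 in sh_TMEFF2 (edgeR's adjusted p from 0.156 to 0.978). GNL3, the nucleolar GTPase nucleostemin, had values of 0.15 and 0.081, and RRP1 of 0.022 and 0.19, also short of the threshold.

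The responses of the lines were then set side by side. Both lines raised 10 of the 40 genes, POLR1E, CD3EAP, NOP56, NCL, NOLC1, UTP15, DDX10, NOP16, PA2G4 and DDX21, while 4.7% of all genes rose in both. These are 10 of the 14 that rose in sh_scramble and of the 17 that rose in sh_TMEFF2. Among all genes, 725 rose in both, of 2217 that rose in sh_scramble and 1209 in sh_TMEFF2. The shared part of the rises in sh_TMEFF2 was thus near that of all genes. RRP9, PNO1, NOP2 and NIP7 passed the threshold in sh_scramble alone, and POLR1A, NOP58, FBL, DKC1, GAR1, NPM1 and UTP20 in sh_TMEFF2 alone, which by itself does not show that the lines differ. The libraries with DHT lay above those without in both lines for 18 genes, and for 9.24% of all genes. Over the 40 genes, the log2 fold changes of the lines had a Pearson correlation of 0.671 and a Spearman correlation of 0.746, given as a description because genes are not independent replicates and share the 12 libraries. The difference between the responses, the log2 fold change in sh_TMEFF2 minus that in sh_scramble, was then itself tested. Of the 40 genes 0 passed (edgeR's quasi-likelihood test), against 1.65% of all genes with a difference above 0 and 3.29% with a difference below 0 (2.4% and 2.58% when scaled by library size only). An unadjusted p under 0.05 was reached by 4 of the 40 genes, against 17.5% of all genes. The difference was 0.62 for CD3EAP (standard error 0.18, edgeR's adjusted p = 0.0784) and 0.20 for POLR1E (standard error 0.090, edgeR's adjusted p = 0.264), where the rise was larger in sh_TMEFF2. For POLR1D it was 0.30 (standard error 0.096, edgeR's adjusted p = 0.106), a gene that fell in sh_scramble and did not pass the test in sh_TMEFF2. For NIP7 the difference was −0.37 (standard error 0.11, edgeR's adjusted p = 0.0755). The median difference over the 40 genes was 0.060, with 26 of them above 0, against a median of 0.0063 over all genes. With DESeq2, CD3EAP, POLR1D and NIP7 passed the threshold (adjusted p = 0.0289, 0.0382 and 0.0405). There, 3.17% of all genes passed with a difference above 0 and 4.8% with 1 below 0, so 3 of 40 was a share near that of all genes. POLR1D also passed the threshold without sh_scramble −DHT replicate 3 (edgeR's adjusted p = 0.0453) and CD3EAP without sh_TMEFF2 −DHT replicate 3 (edgeR's adjusted p = 0.0292). In these 2 refits 1.41% and 1.87% of all genes passed with a difference above 0.

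**Figure D3:**
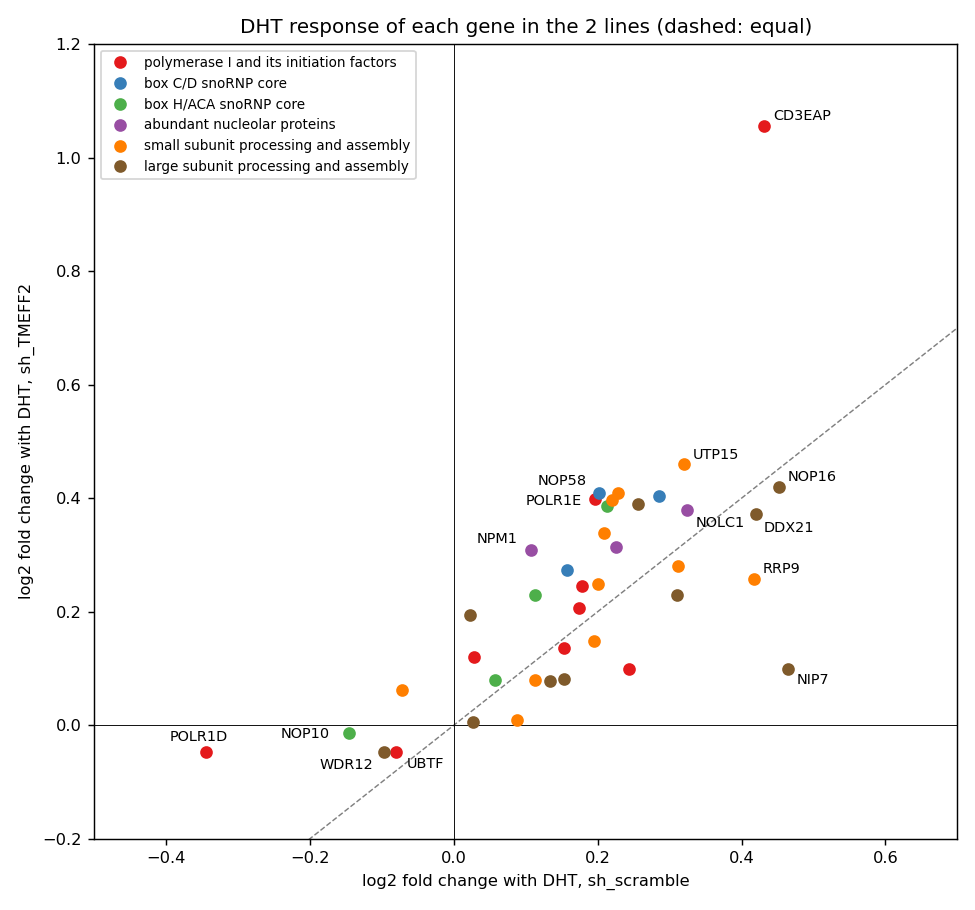
Log2 fold change with DHT in sh_scramble (horizontal axis) and in sh_TMEFF2 (vertical axis) of the 40 genes, coloured by role, with the dashed line marking equal values. CD3EAP lies far above the line at 0.43 and 1.06, NIP7 below it at 0.46 and 0.098, and POLR1D to the left at −0.34 and −0.047.

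Without DHT, the question was whether TMEFF2 shRNA alone changed the genes. In sh_TMEFF2 −DHT against sh_scramble −DHT, 0 of the 40 genes passed the threshold in either direction by edgeR's quasi-likelihood test or DESeq2, where 0.623% of all genes were higher and 0.493% lower. The median log2 difference was −0.050, with 30 of the 40 genes below 0, against −0.0037 over all genes. An unadjusted p under 0.05 was reached by 1 of the 40 genes, against 13.5% of all genes. This was NIP7, whose 3 sh_TMEFF2 libraries lay above the 3 sh_scramble libraries (log2 0.20, standard error 0.076, edgeR's adjusted p = 0.271). The sh_TMEFF2 libraries lay above those of sh_scramble for 1 of the 40 genes, against 9.35% of all genes, and below them for 2, GAR1 and NPM1, against 9.18% (log2 −0.15 and −0.12, edgeR's adjusted p = 0.586 and 0.513). Of the luminal markers 4 of 10 were lower in sh_TMEFF2 here and 0 higher, and their part was not tested. The lowest p below 0 belonged to RRP12, with 61.5, 73.2 and 83.4 CPM in sh_scramble −DHT and 66.1, 59.8 and 61.3 CPM in sh_TMEFF2 −DHT (log2 −0.22, edgeR's adjusted p = 0.375).

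With DHT, 3 genes were higher in sh_TMEFF2 than in sh_scramble and 0 lower by edgeR's test. Among all genes 6.93% were higher and 9.09% lower (10.5% and 7.14% when scaled by library size only). At an unadjusted p under 0.05, 5 of the 40 were lower, against 15.1% of all genes. DESeq2 called 1 lower, RRP12, against 10.2% of all genes. The 3 of 40 were a share near that of all genes. They were POLR1D, POLR1E and CD3EAP, subunits of polymerase I, whereas of 14 other genes of polymerase I transcription 0 were higher and 1 was lower, TWISTNB (log2 −0.36, edgeR's adjusted p = 0.0224). The log2 differences of POLR1D, POLR1E and CD3EAP were 0.24 (standard error 0.068, edgeR's adjusted p = 0.028), 0.23 (standard error 0.063, edgeR's adjusted p = 0.025) and 0.44 (standard error 0.13, edgeR's adjusted p = 0.0355), and for each the 3 sh_TMEFF2 +DHT libraries lay above the 3 sh_scramble +DHT libraries. Over the 40 genes, the sh_TMEFF2 +DHT libraries lay above those of sh_scramble +DHT for 6, against 15.5% of all genes, and below them for 5, against 17%. RRP12 and RRP9 were among those that lay below, by −0.30 and −0.23 (edgeR's adjusted p = 0.0667 and 0.0692), short of the threshold. Of the 10 luminal markers 7 were lower and 1 higher in sh_TMEFF2 with DHT, and of the 6 markers of other cell types 3 were higher and 1 lower. Proliferation markers were higher for 4 of 10 at the threshold. At an unadjusted p under 0.05 10 of 10 were higher, with a median log2 difference of 0.487. The part of these lists was not tested. The median over the 40 genes was 0.026, near that of all genes at 0.0041. None of the 3 calls held under every alternative: without sh_scramble +DHT replicate 2 the number was 0, and it was 1 without sh_scramble +DHT replicate 1 or 3 or without sh_TMEFF2 +DHT replicate 2 or 3.

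Other genes of the pathway were taken from a list of 131 ribosome biogenesis factors chosen for their roles. In sh_scramble 32 (24.4%) rose and 2 fell, and in sh_TMEFF2 24 (18.3%) rose and 0 fell by edgeR's test (0 fell at an unadjusted p under 0.05 in sh_TMEFF2). Among all genes 14.4% and 7.84% rose, and 12.6% and 5.21% fell. Of genes with a mean level of at least 15.2 CPM, which not all of the 131 reached, 20% and 11.2% rose, so the share in sh_scramble was not far above that. The median log2 fold changes of the 131 were 0.13 and 0.15. By the smallest p, the genes that rose most clearly were PAK1IP1 and SNU13 in sh_scramble and EXOSC8 and BRIX1 in sh_TMEFF2. PAK1IP1, a factor of the large subunit, went from 28.2, 29.6 and 28.2 CPM to 70.0, 83.1 and 68.9 CPM in sh_scramble and from 26.8, 27.6 and 27.8 CPM to 34.1, 39.7 and 42.1 CPM in sh_TMEFF2. The groups did not overlap in either line, and the log2 values were 1.37 and 0.50 (edgeR's adjusted p = 5.16e-07 and 0.00451). SNU13, which binds box C/D RNAs, rose in sh_scramble by 0.43 (edgeR's adjusted p = 0.000832). EXOSC8, a subunit of the RNA exosome, rose in sh_TMEFF2 by 0.57 and BRIX1, a factor of the large subunit, by 0.47 (edgeR's adjusted p = 0.00115 and 0.00275). The 2 that fell in sh_scramble were DCAF13, a factor of the small subunit, from 83.9, 83.7 and 80.6 CPM to 67.3, 66.0 and 67.9 CPM (log2 −0.30, edgeR's adjusted p = 0.00103), and GLTSCR2 (current symbol NOP53; log2 −0.49, edgeR's adjusted p = 0.0116).

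The genes of the ribosomal proteins, which these factors load onto the rRNA, were counted beside them. Of 79 genes of cytosolic ribosomal proteins, 0 rose in either line by edgeR's test, also at an unadjusted p under 0.05, and 1 fell in each, RPL5 in sh_scramble by −0.17 (edgeR's adjusted p = 0.0285) and RPS18 in sh_TMEFF2. RPS18 held 1959, 5900 and 4676 CPM in sh_TMEFF2 −DHT, against 2133, 1815 and 1882 CPM in sh_TMEFF2 +DHT, so that 2 libraries without DHT stood above all others. The median log2 fold change of the ribosomal protein genes was −0.075 in sh_scramble and −0.053 in sh_TMEFF2, with 68 and 69 of the 79 below 0. Ribosomal proteins have many processed pseudogenes, and their values are uncertain for that reason. For sh_TMEFF2 +DHT against sh_scramble +DHT, edgeR's test called 3 of the 79 ribosomal protein genes (3.8%), RPLP0, RPLP1 and RPS12, all upward. That share was below the 6.93% of all genes that passed in this direction. The 79 genes had a median log2 difference of 0.065 in this comparison, with 69 of them above 0. MYC, a transcription factor known to drive ribosome biogenesis genes, held 225, 205 and 229 CPM in sh_scramble −DHT and 234, 192 and 234 CPM in sh_scramble +DHT (edgeR's adjusted p = 0.986). In sh_TMEFF2 it held 187, 168 and 201 CPM without and 211, 221 and 220.1 CPM with DHT, groups without overlap whose log2 difference of 0.23 was short of the threshold (edgeR's adjusted p = 0.102).

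**Figure D4:**
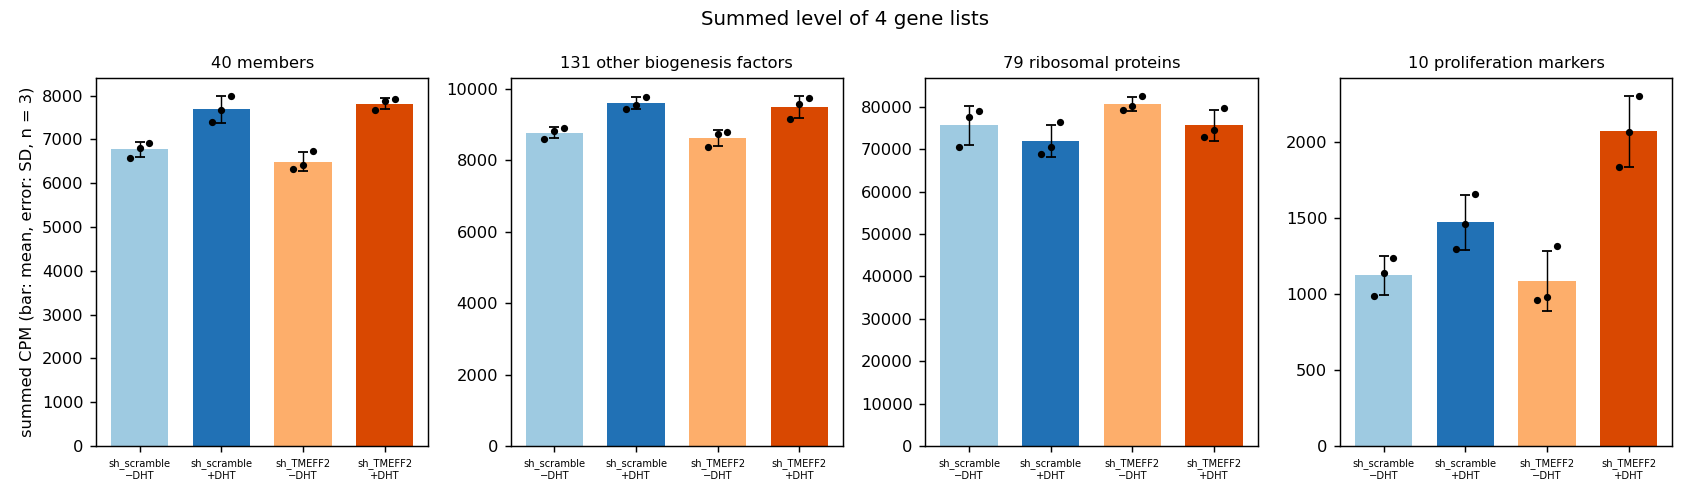
Summed level (vertical axis, CPM from 0) of the 40 genes, of 131 other biogenesis factors, of 79 ribosomal proteins and of 10 proliferation markers in each group, with the mean (bar), SD (error bar, n = 3) and the 3 libraries (points). The 40 genes averaged 6776 CPM without and 7689 CPM with DHT in sh_scramble, and 6493 and 7819 CPM in sh_TMEFF2, while the ribosomal proteins averaged 75680 and 71940 CPM, and 80710 and 75620 CPM.

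In the GENCODE annotation of GRCh38, the 40 genes lie on 19 chromosomes. An exon of 19 of them overlaps an exon of a gene on the opposite strand, CD3EAP, POLR1D and NIP7 among them, and 9 share exon sequence with a gene on the same strand, in NOP56, DKC1, NCL, TAF1D and GNL3 mostly snoRNAs in their own transcripts. Pseudogenes are annotated for 10 of the 40. Estimated counts of such genes may hold reads of their neighbours or copies, and POLR1E, RRP9 and DDX21 have no such overlap or copy.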

How the data were processed

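RNA-seq libraries of LNCaP cells, 3 in each of 4 groups, were analysed from the table of the series, with groups taken from the labels. Total RNA was sequenced as 75 bp paired-end reads on a NextSeq 500. The authors filtered contaminant reads, ribosomal RNA among them, trimmed with Trimmomatic to at least 15 bp and quantified transcripts with kallisto 0.42.3 on GRCh38 with bias correction. Per gene the authors deposited estimated counts scaled by library size and mean transcript length, which need not be whole and carry no strand. Of the 24 columns, 2 belong to each library and were taken as repeat runs, since they lay closer to each other (chi-square statistic over its expectation, median over genes, 2.66 to 2.96) than replicates did (5.96 to 7.92). They were summed and rounded to whole numbers.

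Counts were normalized by TMM (factors 0.955 to 1.04), filtered with filterByExpr (minimum count 10, minimum total 15) and fitted with edgeR 4.0.16 in R 4.3.3 over all 12 libraries, with 1 coefficient per group (common coefficient of variation 0.131). Differences were tested with the quasi-likelihood F-test, p-values were adjusted over all 15419 genes (Benjamini-Hochberg), and genes were called at an adjusted p of at most 0.05. The methods of the study also ask for 1.5-fold, which is given beside it, and use DESeq2, which was run as an alternative (1.42.0), as were limma-voom (3.58.1), other scalings and filters, the 6 libraries of a comparison alone, single columns, the replicate number as a block and each library left out. P-values measure the spread between libraries, which share 2 transductions. The scripts were tested on simulated counts.

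The 40 genes, the other lists and the rule for named genes were chosen with earlier results of these data known. The rule names TMEFF2, for each comparison the 4 genes with the smallest p in each direction, for each role the largest and smallest response in each line, and of other pathway genes MYC and the 2 with the smallest p in each direction of each DHT response. Other genes are named inside counts. Of 14 snoRNA host genes listed, 0 had a matching symbol, and they were not analysed here. Promoters are from RefSeq (GRCh38.p14) and positions from GENCODE (GRCh38); the 7 printed stretches were identical to the genome.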

Additional observations from a re-analysis of the deposited data

Results flagged for a closer look

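The response to DHT differed between the lines for 2 of the 131 other ribosome biogenesis factors when the difference itself was tested with edgeR over all genes. The difference was above 0 for 1 and below 0 for 1, against 1.65% and 3.29% of all genes. The 2 were thus not a larger share than among all genes. PAK1IP1 rose more in sh_scramble, from 28.7 ± 0.80 to 74.0 ± 7.87 CPM (SD, n = 3), than in sh_TMEFF2, from 27.4 ± 0.55 to 38.6 ± 4.13 CPM (SD, n = 3), a difference of −0.873 on the log2 scale (edgeR's adjusted p = 0.00209). DCAF13 held 82.7 ± 1.88 and 67.1 ± 0.93 CPM in sh_scramble without and with DHT (SD, n = 3), and in sh_TMEFF2 76.6, 78.9 and 79.1 CPM without and 80.8, 77.6 and 81.6 CPM with DHT, a difference of 0.335 (edgeR's adjusted p = 0.0219).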

How the results depend on the processing

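Over all alternatives the median log2 response to DHT of the 40 genes stayed above 0, between 0.126 and 0.207 in sh_scramble and between 0.201 and 0.269 in sh_TMEFF2. Scaling by library size only gave 7 genes that rose and 2 that fell in sh_scramble (all-gene median −0.0816), against 10.9% and 17.5% of all genes. It gave 6 higher in sh_TMEFF2 with DHT and 1 difference of responses above 0, against 10.5% and 2.4%. With the limit of 1.5-fold, 0 rose and 0 fell in sh_scramble, 1 rose in sh_TMEFF2 and 0 were higher in sh_TMEFF2 with DHT. The first column of each library alone gave 11 that rose in sh_TMEFF2 and 1 higher in sh_TMEFF2 with DHT, against 5.96% and 5.13% of all genes. The second column gave 1 of the latter, against 4.74%. DESeq2 gave 1 gene lower in sh_TMEFF2 with DHT, against 10.2% of all genes. It also gave 2 differences of responses above 0 and 1 below 0, against 3.17% and 4.8%. The libraries of the comparison alone gave 1 lower with DHT, against 7.98%. The cause of these changes was not tested. Leaving out 1 library gave 6 to 15 genes that rose in sh_scramble and 11 to 21 that rose in sh_TMEFF2. Of all genes, 10.8% to 14.2% and 4.05% to 7.9% rose in these refits. They gave 0 to 4 higher and 0 to 1 lower in sh_TMEFF2 with DHT, and 0 to 1 differences of responses above 0. Among all genes these shares were 4.24% to 7.71%, 6.11% to 8.84% and 0.808% to 1.87%. Over 103 values of named genes, the refits kept direction and side of the threshold in 2053 cases, lost the call in 130 and gained one in 54, and turned the sign in 25, for 10 values of 8 genes that were not called. In sh_scramble, library size only gave −0.0406 for RRN3, −0.012 for NHP2, −0.0436 for BOP1 and −0.0456 for RRP1, the first column −0.0383 for RRP1, and the second column −0.0161 for NHP2 and −0.0151 for BYSL. In sh_TMEFF2 the second column gave 0.0219 for NOP10, −0.000659 for RRP12 and 0.0629 for WDR12. Leaving out 1 library gave, in sh_scramble, −0.00782 to 0.0585 for RRN3, −0.0189 to 0.202 for RRP12, −0.0716 to 0.107 for BOP1 and −0.0221 to 0.0831 for RRP1, and in sh_TMEFF2 −0.0612 to 0.0365 for NOP10, −0.0435 to 0.0712 for RRP12, −0.028 to 0.0691 for BOP1 and −0.114 to 0.0666 for WDR12.

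Replicate numbers are shared between the groups, and the methods of the study name no block, so the main fit had none. In their deviations from the group mean, same-numbered libraries correlated by −0.00172 to 0.169 over 18 pairs, 3 of them over 0.1. The 36 pairs of unlike number correlated by −0.14 to 0.0658. When the correlations of a library were averaged by replicate number, its own number had the highest mean for 12 of 12 libraries. Single pairs could differ, as sh_TMEFF2 −DHT replicate 2 correlated most with sh_scramble −DHT replicate 1 (0.0658). Libraries of a number thus shared a small part of their deviation, which the main fit leaves in the spread. With the replicate number as a block, 17 genes rose in sh_scramble and 20 in sh_TMEFF2, against 16.5% and 9.73% of all genes. In that fit 2 (RRP9 and RRP12) were lower in sh_TMEFF2 with DHT, against 10.8% of all genes. A difference of responses above 0 was called for 2 (CD3EAP and POLR1D), against 2.8% of all genes. With 3 libraries a group, changes as small as these are partly missed, and a value short of the threshold does not show that a gene did not change.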
